A study of Mus musculus with 8 samples.

Results

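The genes described here are 10 regulators of the G1 phase of the cell cycle: the D-type cyclins *Ccnd1*, *Ccnd2* and *Ccnd3*, the E-type cyclins *Ccne1* and *Ccne2*, the cyclin-dependent kinases *Cdk4*, *Cdk6* and *Cdk2*, the kinase inhibitor *Cdkn1b* (p27) and the retinoblastoma gene *Rb1*. They were chosen by name and found among the 55385 genes of the count table by matching each Ensembl identifier to its GENCODE symbol. All 10 were among the 17445 genes that passed the filter on low counts and were tested.

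In the textbook pathway, D-type cyclins bind CDK4 or CDK6 and start the phosphorylation of the RB protein, which in its unphosphorylated form holds back the E2F transcription factors. E-type cyclins with CDK2 carry this phosphorylation further, and p27 binds and restrains cyclin E-CDK2 while also associating with cyclin D complexes. Mouse embryonic stem cells are known for a short G1 phase and for cyclin E-CDK2 activity that varies little over the cell cycle.

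The cells were mESCs of the R1 line, derived from a male embryo and wild-type in genotype, grown without feeder cells in N2B27 medium with LIF and a pair of kinase inhibitors (2i). They were infected for 2 days with lentivirus carrying a hairpin and kept under puromycin for 3 days, so that each library is a selected pool of infected cells and not a clone. *Eftud2*, which encodes a GTPase of the U5 snRNP in the spliceosome, was targeted by shRNA1 (3 libraries), directed downstream of its coding sequence, or by shRNA2 (3 libraries), directed at the coding sequence. The control was nt-shRNA, a hairpin without a target (2 libraries), and both KD groups were compared with the same 2 control libraries.

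Libraries held between 19569525 and 29871048 counts, and the lowest count of any of the 10 genes in any library was 24. Levels are given as CPM, TMM-normalized counts relative to the size of the library, and 3 counts corresponded to between 0.105 and 0.148 CPM. The targeted *Eftud2* transcript was lower under shRNA2 (log2 fold change -0.29, edgeR adjusted p = 0.00122), and under shRNA1 its log2 fold change of -0.18 did not pass the test (adjusted p = 0.0514), although it passed in 6 of 15 alternatives, DESeq2 (0.0487) and the replicate block (0.0206) among them. KD names libraries that carried a hairpin against *Eftud2*, and the qPCR and protein measurements that the study made of the knockdown were not analysed here. The pluripotency markers *Pou5f1*, *Nanog* and *Sox2* stood at mean levels between 313 and 1549 CPM in every group. The summed level of 8 pluripotency markers was 4357 to 4438 CPM in nt-shRNA, 4855 to 5026 CPM in shRNA1 and 5840 to 6031 CPM in shRNA2. The sum of 5 markers of two-cell-like cells was 9.44 to 11.2 CPM, 45.5 to 64.4 CPM and 36.3 to 46.5 CPM in the same order, and that of 4 neural markers 16.9 to 19.4, 21.7 to 24.2 and 32.4 to 46.1 CPM. Sums for primed epiblast, endoderm, mesoderm, trophoblast and fibroblast markers were at most 126.3 CPM in any library, and 1 of 5 fibroblast markers, 1 of 4 neural markers and 1 of 4 primed epiblast markers were at 0 counts in some libraries. The sums of the pluripotency, neural and primed epiblast markers did not overlap between the 3 groups, that of the two-cell-like markers was higher in every KD library than in nt-shRNA and overlapped between the hairpins, those of mesoderm and trophoblast overlapped, and those of endoderm and fibroblast overlapped between nt-shRNA and shRNA1 and were below both in shRNA2. Of the 8 pluripotency markers, 4 rose and 1 fell with shRNA1, and 6 rose and 1 fell with shRNA2, beside 13.8% higher and 17.1% lower, and 27.2% and 28.7%, of all 17445 tested genes. *Pou5f1* was the one that fell (log2 fold change -0.35, adjusted p = 0.000372, and -0.29, adjusted p = 0.000862), while *Nanog* rose (0.55 and 0.76) and *Sox2* did not pass (-0.14 and -0.02). Of the neural markers tested, *Tubb3* alone rose (0.62 and 1.58), and *Pax6* (-0.57 and -0.42) and *Sox1* (-0.10 and -0.21) did not pass. Of the primed epiblast markers tested, *Dnmt3b* alone rose (0.67 and 1.25), *Otx2* fell with shRNA2 (-0.64, and -0.16 without passing with shRNA1), and *Pou3f1* did not pass (-0.32 and -0.29). Members of the other sums also went different ways with shRNA2, where *Pdgfrb* (-0.74), *Gata6* (-0.75) and *Hand1* (-1.62) fell, *Mixl1* rose (0.81, adjusted p = 0.0498) and *Col1a2* rose with both hairpins (1.27 and 1.66). The part of these markers in the results on the G1 genes was not tested.

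The first question was how strongly each G1 gene was expressed in these cells. Genes were set side by side as CPM per kilobase of exon. The order in nt-shRNA was *Cdk4*, *Ccne1*, *Ccnd3*, *Cdk2*, *Cdkn1b*, *Ccnd1*, *Rb1*, *Ccne2*, *Cdk6* and *Ccnd2*. Lengths included exon bases shared with other genes, where fragments were not counted. Such bases made up 23.4% of *Ccnd1*, 19.7% of *Cdk4* and 17.4% of *Ccne2*, and *Ccne1* and *Cdkn1b* had none. Levels per kb may thus be understated by unlike amounts, and the order of close neighbours is uncertain. *Cdk4* led with a level of 88.9 ± 2.75 CPM per kb (SD, n = 2) and *Ccne1* followed with 38.5 ± 2.14. *Ccnd2* was last with 0.129 ± 0.0257. The ranges of neighbouring genes did not overlap anywhere in the nt-shRNA order. With shRNA1 the order was the same, with overlap between *Rb1* and *Ccne2* alone, whereas with shRNA2 *Ccne2* (level 5.04 ± 0.335, SD, n = 3) stood before *Rb1* (4.98 ± 0.425) and the ranges overlapped for this pair and for *Cdk2* and *Cdkn1b*. *Cdk4* stood 41.2 ± 2.14 times as high as *Cdk6* per kb in nt-shRNA, 43.2 ± 2.74 times in shRNA1 and 43.9 ± 2.31 times in shRNA2. The kinases that partner the D-type cyclins held the first and the ninth place in every group.

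**Figure D1:**
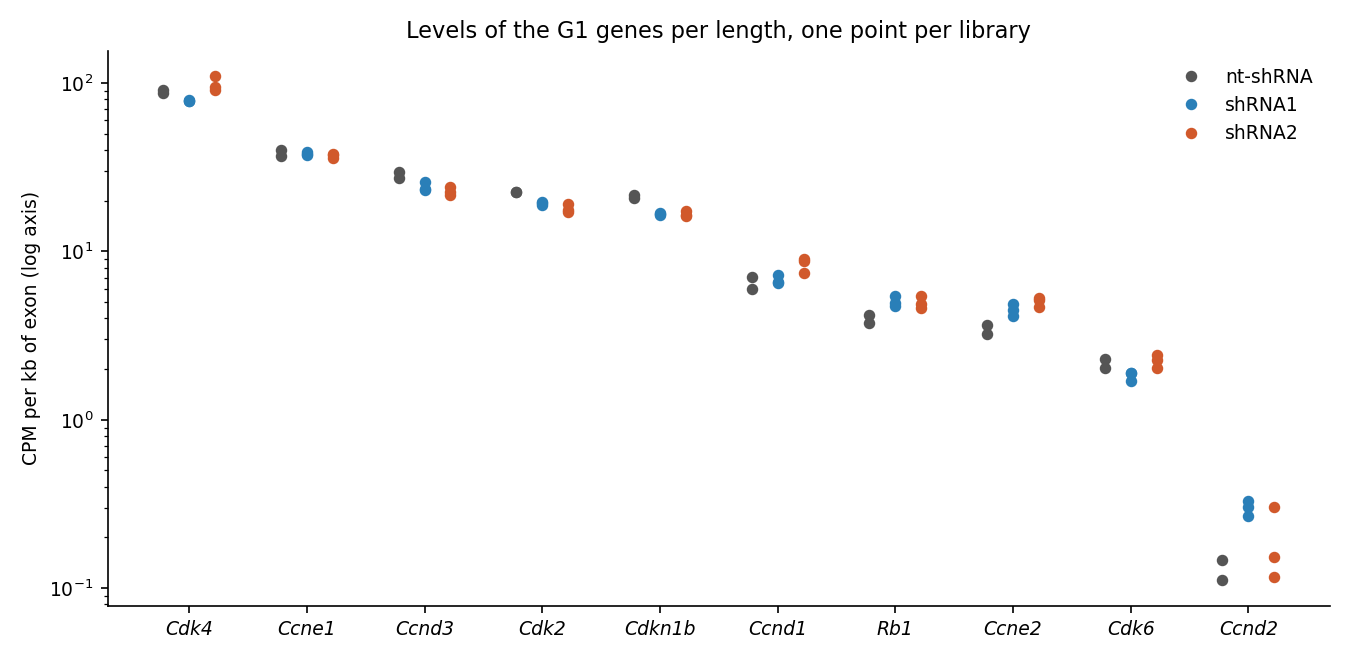
Level of each G1 gene in CPM per kilobase of exon on a log axis, with a point for each library and a colour for each group, ordered by the mean in nt-shRNA. *Cdk4* is highest at 88.9 CPM per kb in nt-shRNA, *Ccnd2* is lowest at 0.129, and the order of the genes is nearly the same in the 3 groups.

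Each KD group was compared with nt-shRNA to ask whether these genes differed in cells that carried a hairpin against *Eftud2*. By edgeR's quasi-likelihood test with Benjamini-Hochberg adjustment over all genes, 3 of the 10 rose and 3 fell with shRNA1, and 4 did not pass. The background for this comparison is 30.9% of all 17445 tested genes called, 13.8% higher and 17.1% lower. With shRNA2 the same counts were found, 3 higher and 3 lower, against a background of 55.9% called, 27.2% higher and 28.7% lower, so that the share of G1 genes called was close to that of all genes. *Ccnd3*, *Cdk2* and *Cdkn1b* fell with both hairpins, *Ccne2* and *Rb1* rose with both, *Ccnd2* rose with shRNA1 and *Ccnd1* with shRNA2. No gene was called in opposite directions by the hairpins, whose comparisons shared the same control libraries. How often all tested genes were called in the same or opposite directions by both hairpins was not counted here. With 1 library left out at a time, the genes called higher with shRNA1 numbered 1 to 3 (1 without shRNA1 replicate 1 or nt-shRNA replicate 2) and those called lower 1 to 5 (1 without nt-shRNA replicate 1, 2 without shRNA1 replicate 2 or nt-shRNA replicate 2, 5 without shRNA2 replicate 2), and scaling by library size alone left 1 lower. With shRNA2 the genes called higher numbered 2 to 5 (2 without either nt-shRNA library, 5 without shRNA2 replicate 3), and those called lower stayed at 3. The median log2 fold change of the 10 genes was -0.09 with shRNA1 and 0.10 with shRNA2, beside -0.01 and 0.00 for all genes tested. In bulk RNA a smaller share of cells with a transcript and less of it per cell cannot be told apart, and shares of cells in G1, S and G2 were not measured in these libraries.

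**Figure D2:**
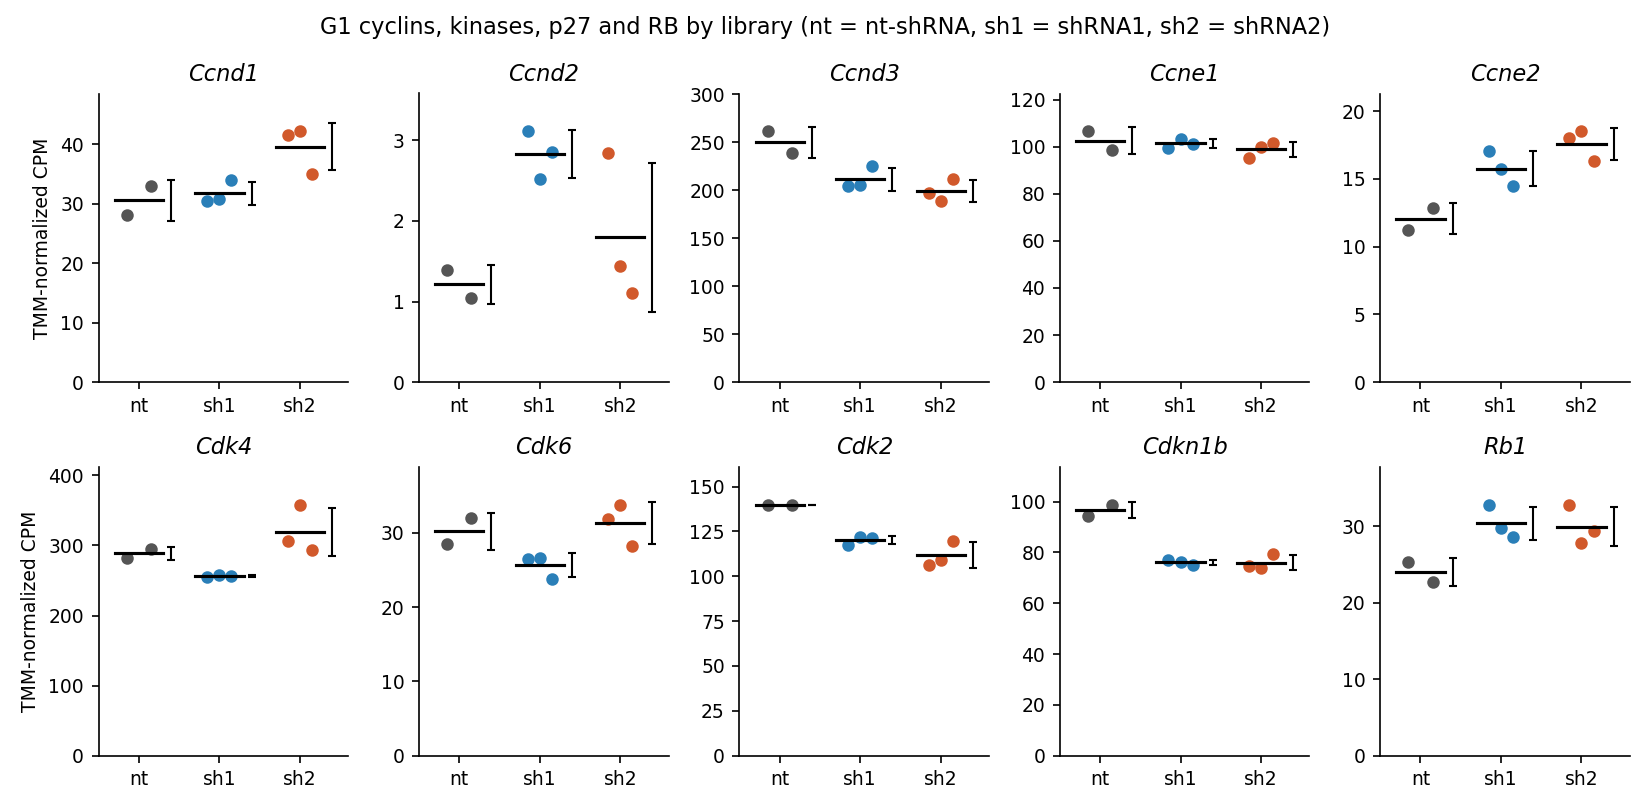
TMM-normalized CPM of the 10 genes in each of the 8 libraries, one panel per gene with its own axis from 0, points for libraries, a line at the group mean and a bar of 1 SD beside it. *Cdkn1b*, *Cdk2* and *Ccnd3* lie below the control in every KD library, and *Ccne2* and *Rb1* lie above it.

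The promoters of 6 of the 10 genes were found in the RefSeq table for GRCm38.p6, and 4 are shown: those of the 3 genes that fell with both hairpins, because they moved together, and that of *Cdk4*, the gene with the highest level. Each run is the 250 bases upstream of the annotated start, read 5′ to 3′ on the strand of the gene. Capitals mark CACGTG in *Cdk4* (chr10:127063285-127063534, plus strand), an E2F-type octamer and CCAAT in *Cdk2* (chr10:128705052-128705301, minus strand), CCAAT in *Cdkn1b* (chr6:134920151-134920400, plus strand) and the complement of GGGCGG in *Ccnd3* (chr17:47504801-47505050, plus strand).
Cdk4: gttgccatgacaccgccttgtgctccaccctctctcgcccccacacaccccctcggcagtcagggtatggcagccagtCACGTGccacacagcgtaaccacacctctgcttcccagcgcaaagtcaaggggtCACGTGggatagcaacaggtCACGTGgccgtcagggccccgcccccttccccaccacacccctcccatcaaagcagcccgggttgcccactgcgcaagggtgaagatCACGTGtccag
Cdk2: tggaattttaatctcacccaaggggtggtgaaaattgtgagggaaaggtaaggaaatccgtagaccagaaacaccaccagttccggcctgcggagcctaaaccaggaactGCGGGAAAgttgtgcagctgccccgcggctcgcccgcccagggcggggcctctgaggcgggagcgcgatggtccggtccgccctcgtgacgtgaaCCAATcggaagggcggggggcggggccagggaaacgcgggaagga
Cdkn1b: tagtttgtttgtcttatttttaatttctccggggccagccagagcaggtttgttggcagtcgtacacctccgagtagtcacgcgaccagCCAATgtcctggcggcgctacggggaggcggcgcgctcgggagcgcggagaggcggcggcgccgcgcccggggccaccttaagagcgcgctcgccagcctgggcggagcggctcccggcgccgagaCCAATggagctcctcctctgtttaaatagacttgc
Ccnd3: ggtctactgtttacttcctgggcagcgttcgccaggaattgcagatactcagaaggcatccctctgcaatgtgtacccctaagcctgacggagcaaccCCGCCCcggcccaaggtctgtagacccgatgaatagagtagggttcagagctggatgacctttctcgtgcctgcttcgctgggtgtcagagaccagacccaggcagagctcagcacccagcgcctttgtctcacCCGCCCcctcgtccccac
The letters searched on both strands were CACGTG (a palindrome, the E-box bound by MYC-family factors), CCAAT (the box bound by NF-Y), GGGCGG (the GC box bound by SP factors) and, for E2F, TTTCCCGC, TTTCGCGC, TTTGCCGC or TTTGGCGC. *Cdk4* held 4 CACGTG matches, a number reached by 7 of all 32851 promoter windows of this length (0.0213%), and 6.02% of windows held at least 1. *Cdk2* held 1 E2F-type match from 140 to 133 bases upstream of its start, which 1.86% of windows also hold, 1 CCAAT and 5 GC boxes. *Cdkn1b* held 2 CCAAT matches, a number reached by 10.1% of windows, and 1 GC box. *Ccnd3* held 2 GC boxes, a number reached by 16.7% of windows. No match of one motif overlapped a match of another in these 4 windows. The table holds another entry for *Ccnd3* (chr17:47593217-47593466, plus strand, sequence not shown), with 1 CCAAT and 1 GC box, and the window printed is the one that ends at the annotated start of the gene. These are matches of letters and not measured binding.

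Of the D-type cyclins, which couple growth signals to the RB pathway, the most abundant fell with both hairpins and the others rose with one hairpin each. *Ccnd3* (ENSMUSG00000034165, chromosome 17, 47505051 to 47599691, plus strand, 8775 exon bases) was measured at 262 and 239 CPM in nt-shRNA, at 204, 205 and 226 CPM in shRNA1 and at 198, 189 and 211 CPM in shRNA2. All 6 KD libraries were below both control libraries. The level fell by 15.3% with shRNA1 (log2 fold change -0.24, SE 0.067, edgeR adjusted p = 0.0102) and by 20.3% with shRNA2 (log2 fold change -0.33, SE 0.067, adjusted p = 0.000379). The hairpins were not told apart for *Ccnd3*, with a log2 difference of -0.09 and a 95% interval from -0.21 to 0.04. The call with shRNA1 was lost without shRNA1 replicate 2 (adjusted p = 0.0507), without nt-shRNA replicate 1 (0.185) and with scaling by library size alone (0.149), whereas the call with shRNA2 held in all 15 alternatives. The table also annotates a pseudogene, *Ccnd3-ps*, and fragments that align to both copies were not counted.

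*Ccnd1* (ENSMUSG00000070348, chromosome 7, 144929931 to 144939925, minus strand, 4709 exon bases), the D-type cyclin best known as a target of mitogen and WNT signalling, was measured at 28.1 and 33.0 CPM in nt-shRNA. It was measured at 30.4, 30.8 and 34.0 CPM in shRNA1, where its libraries overlapped the control, and at 41.6, 42.2 and 35.1 CPM in shRNA2, where all libraries were above both other groups. The level was 29.5% higher with shRNA2 than with nt-shRNA (log2 fold change 0.37, SE 0.095, adjusted p = 0.00251) and 24.6% higher than with shRNA1 (0.32, SE 0.085, adjusted p = 0.00719). With shRNA1 the log2 fold change was 0.06, with a 95% interval from -0.14 to 0.26 (adjusted p = 0.692). The 2 control libraries differed by more than the shRNA1 libraries did, and without nt-shRNA replicate 1 the log2 fold change with shRNA2 was 0.26 and did not pass (adjusted p = 0.0792). Of its exon bases, 23.4% are also annotated as exon of *LTO1*, and fragments shared by both genes were not counted.

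*Ccnd2* (ENSMUSG00000000184, chromosome 6, 127125162 to 127152193, minus strand, 9409 exon bases) had the lowest counts of the 10 genes. Its raw counts were 37 and 30 in nt-shRNA, 69, 51 and 80 in shRNA1 and 61, 32 and 24 in shRNA2, which correspond to 1.39 and 1.04 CPM, to 3.11, 2.52 and 2.85 CPM and to 2.84, 1.44 and 1.10 CPM. The 3 shRNA1 libraries stood above the control, and in shRNA2 replicate 1 stood with the shRNA1 libraries while replicates 2 and 3 stood near the control. The level was 133% higher with shRNA1 (log2 fold change 1.22, SE 0.30, adjusted p = 0.00406), the only change of the 10 genes beyond 2-fold in any comparison, and this call was lost without nt-shRNA replicate 2 (adjusted p = 0.057). Its log2 fold change with shRNA2 was 0.56, with a 95% interval from -0.10 to 1.22 (adjusted p = 0.141), and it was 0.82 without shRNA2 replicate 3 (adjusted p = 0.0248) and 0.08 without shRNA2 replicate 1 (adjusted p = 0.844). Between the hairpins the log2 difference was -0.66 with an adjusted p of 0.0505, and it passed in 8 of the 15 alternatives. Over the fits that left out 1 library, this difference ranged from -1.15 (without shRNA2 replicate 1, adjusted p = 0.00215) to -0.41.

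Because *Ccnd3* and the other D-type cyclins moved in opposite directions, their summed level and its composition were compared. The D-type total was 35.1 ± 1.14 CPM per kb (SD, n = 2) in nt-shRNA, 31.2 ± 1.78 (n = 3) in shRNA1 and 31.3 ± 0.566 (n = 3) in shRNA2. All KD libraries, between 30.1 and 33.2, lay below both control libraries, at 34.3 and 35.9, under TMM scaling. The log2 ratio to nt-shRNA was -0.173 with shRNA1 and -0.166 with shRNA2, and with library size alone it was -0.058 and -0.076. With library size alone shRNA1 replicate 3 stood above both control libraries, so that separation was lost. In an exact two-sided permutation test p was 0.2 for either hairpin, the smallest that 3 libraries against 2 can give, and with 10 arrangements of the libraries this design cannot reach 0.05. *Ccnd3* supplied 81.1% ± 2.64 of the total in nt-shRNA, 77.4% ± 0.0271 in shRNA1 and 72.5% ± 3.15 in shRNA2. *Ccnd1* supplied 16.6% and 20.4% in the nt-shRNA libraries, 21.5% to 21.7% in the shRNA1 libraries and 23.5% to 29.2% in the shRNA2 libraries. These ranges of the *Ccnd1* share did not overlap, and the exact permutation p was 0.2 for either hairpin against the control and 0.1 between the hairpins, in each case the smallest possible. *Ccnd2* supplied under 1.1% in every library. The lengths used include uncounted shared bases, 23.4% of *Ccnd1* and 4.11% of *Ccnd3*, so the *Ccnd1* share may be understated in every group.

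Of the E-type cyclins, which activate CDK2 at the entry into S phase, the abundant one did not change detectably and the minor one rose. *Ccne1* (ENSMUSG00000002068, chromosome 7, 38097984 to 38107534, minus strand, 2662 exon bases) was measured at 107 and 98.6 CPM in nt-shRNA, at 99.6, 103 and 101 CPM in shRNA1 and at 95.3, 99.8 and 101.5 CPM in shRNA2. The libraries of the 3 groups overlapped, and *Ccne1* was the only gene of the 10 called in no comparison. Its log2 fold change was -0.02 with shRNA1 (95% interval -0.15 to 0.11, edgeR adjusted p = 0.871) and -0.05 with shRNA2 (95% interval -0.18 to 0.08, adjusted p = 0.488). Both signs turned with library size alone, and relative to the shift of all genes under that scaling the values were -0.015 and -0.052. No other annotated exon overlaps those of *Ccne1*.

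*Ccne2* (ENSMUSG00000028212, chromosome 4, 11191351 to 11204779, plus strand, 3495 exon bases) was measured at 11.2 and 12.9 CPM in nt-shRNA, at 17.1, 15.7 and 14.5 CPM in shRNA1 and at 18.0, 18.5 and 16.3 CPM in shRNA2. Every KD library was above both control libraries, and the hairpins overlapped each other. The level was 30.2% higher with shRNA1 (log2 fold change 0.38, SE 0.11, adjusted p = 0.0136) and 46.0% higher with shRNA2 (log2 fold change 0.55, SE 0.11, adjusted p = 0.00037). Between the hairpins the log2 difference was 0.16, with a 95% interval from -0.04 to 0.37 (adjusted p = 0.202). The call with shRNA1 was lost without shRNA1 replicate 1 (adjusted p = 0.0643) and without nt-shRNA replicate 1 (0.176), while that with shRNA2 held in all 15 alternatives. Of the exon bases of *Ccne2*, 17.4% are shared with *Ints8* on the opposite strand, and fragments there were not counted.

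The E-type total was 42.0 ± 1.81 CPM per kb (SD, n = 2) in nt-shRNA, 42.6 ± 0.632 (n = 3) in shRNA1 and 42.2 ± 1.07 (n = 3) in shRNA2, and the ranges overlapped under TMM scaling (exact permutation p = 0.6 and 1). The log2 ratio to nt-shRNA was 0.021 and 0.007, and with library size alone it was 0.136 and 0.097, with every KD library above both control libraries. *Ccne1* supplied 91.8% ± 1.13 of the total in nt-shRNA, 89.4% ± 0.88 in shRNA1 and 88.0% ± 0.923 in shRNA2, and each KD library was below both control libraries. The *Ccne1* share may be overstated in every group, because only *Ccne2* has uncounted shared bases in its length. The ratio of the D-type to the E-type total was 0.837 ± 0.00894 in nt-shRNA, 0.732 ± 0.0485 in shRNA1 and 0.743 ± 0.0284 in shRNA2, without overlap between the control and either hairpin (exact permutation p = 0.2 in both, the smallest possible).

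**Figure D3:**
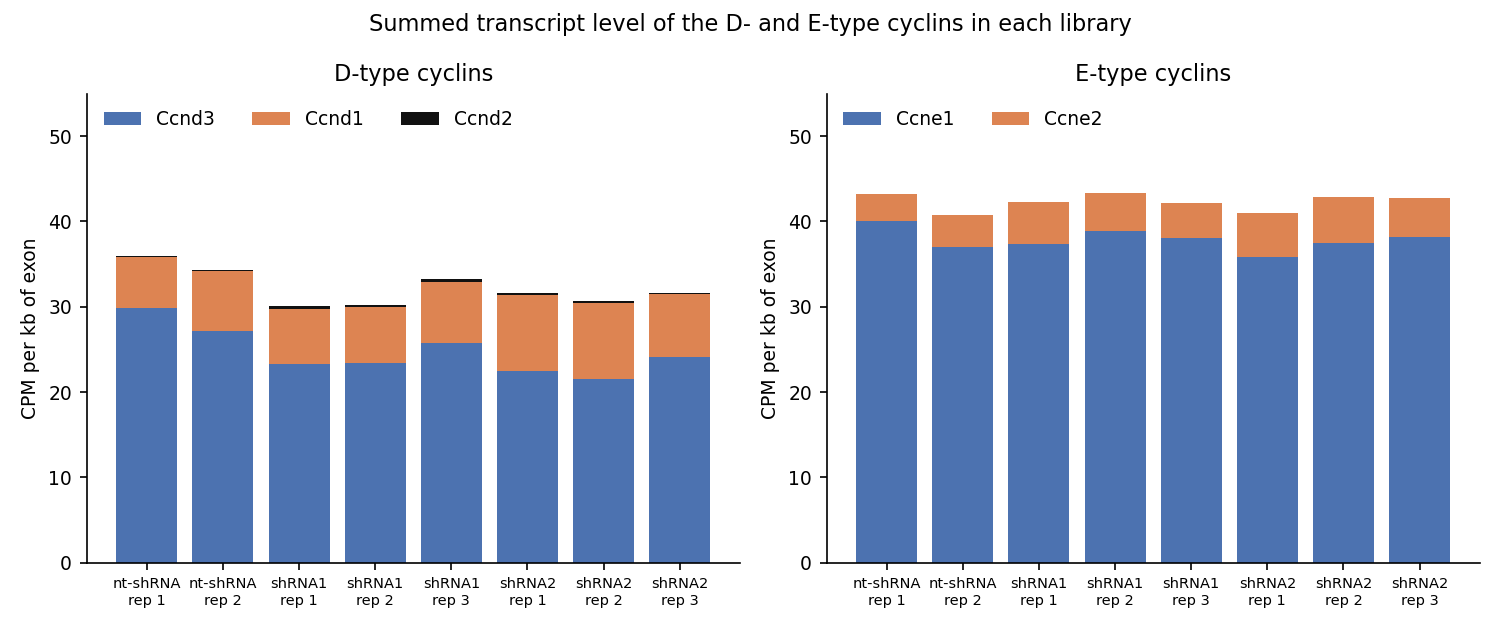
Stacked bars of the D-type cyclins (left) and the E-type cyclins (right) in each library, in CPM per kilobase of exon. Under TMM scaling the D-type total is 34.3 and 35.9 in the control and 30.1 to 33.2 in the KD libraries with a larger *Ccnd1* part under shRNA2, and the E-type total under the same scaling lies between 40.7 and 43.3 in all 8 libraries.

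The kinases of the D-type cyclins differed between the hairpins, and neither passed the test against the control with either hairpin. *Cdk4* (ENSMUSG00000006728, chromosome 10, 127063534 to 127067920, plus strand, 3249 exon bases) was measured at 282 and 295 CPM in nt-shRNA, at 255, 258 and 256 CPM in shRNA1 and at 306, 358 and 294 CPM in shRNA2. The shRNA1 libraries were the lowest 3 and lay within 3 CPM of each other, whereas shRNA2 replicate 2 was the highest library and shRNA2 replicate 3 lay between the controls. With shRNA1 the log2 fold change was -0.17 (95% interval -0.32 to -0.02, adjusted p = 0.0748) and with shRNA2 it was 0.15 (95% interval -0.00 to 0.30, adjusted p = 0.0914), and neither passed. In the direct comparison *Cdk4* was 24.6% higher with shRNA2 than with shRNA1 (log2 fold change 0.32, SE 0.064, adjusted p = 0.000889), and this call held in all 15 alternatives. The shRNA2 value passed with library size alone (log2 fold change 0.23, adjusted p = 0.00844), with the replicate block (0.17, adjusted p = 0.0372) and without shRNA2 replicate 3 (0.20, adjusted p = 0.0219), and with at least 10 counts in every library it stood at the threshold (0.17, adjusted p = 0.05). The shRNA1 value passed with no filter (-0.18, adjusted p = 0.0356) and without shRNA2 replicate 2 (-0.17, adjusted p = 0.0236). Of the exon bases of *Cdk4*, 19.7% are shared with *Tspan31* on the opposite strand.

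*Cdk6* (ENSMUSG00000040274, chromosome 5, 3341485 to 3531008, plus strand, 13989 exon bases), the other partner of D-type cyclins, was measured at 28.4 and 32.0 CPM in nt-shRNA, at 26.4, 26.6 and 23.8 CPM in shRNA1 and at 31.9, 33.8 and 28.2 CPM in shRNA2. As for *Cdk4*, all shRNA1 libraries were below both control libraries and below all shRNA2 libraries. With shRNA1 the log2 fold change was -0.24 (95% interval -0.44 to -0.05, adjusted p = 0.0543), which passed without shRNA2 replicate 2 (adjusted p = 0.0387) or without shRNA2 replicate 3 (0.0382). Over the fits that left out 1 library, this shRNA1 value ranged from -0.32 to -0.15. With library size alone it was -0.13, or -0.242 relative to the shift of all genes (adjusted p = 0.316). With shRNA2 the log2 fold change was 0.05 (95% interval -0.14 to 0.24, adjusted p = 0.662). The level was 22.4% higher with shRNA2 than with shRNA1 (log2 fold change 0.29, SE 0.085, adjusted p = 0.0114), and this call was lost without shRNA1 replicate 3 (adjusted p = 0.0559) and without shRNA2 replicate 2 (0.0583).

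*Cdk2* (ENSMUSG00000025358, chromosome 10, 128697939 to 128705031, minus strand, 6219 exon bases), the kinase of the E-type cyclins, fell with both hairpins. It was measured at 140 CPM in both nt-shRNA libraries, at 118, 122 and 121 CPM in shRNA1 and at 106, 109 and 120 CPM in shRNA2. All KD libraries were below the control, and shRNA2 replicate 3 lay within the range of shRNA1. The level fell by 14.1% with shRNA1 (log2 fold change -0.22, SE 0.063, adjusted p = 0.0114) and by 20.2% with shRNA2 (log2 fold change -0.33, SE 0.063, adjusted p = 0.000215), and the hairpins differed by -0.11 on the log2 scale (95% interval -0.22 to 0.01, adjusted p = 0.16), a difference that passed without shRNA2 replicate 3 (-0.16, adjusted p = 0.0409). The shRNA1 call was lost without nt-shRNA replicate 1 (log2 fold change -0.22, adjusted p = 0.0838), without nt-shRNA replicate 2 (-0.22, 0.0737) and with library size alone (-0.11, or -0.22 relative to the shift of all genes, 0.213), and the shRNA2 call held in all 15 alternatives.

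*Cdkn1b* (ENSMUSG00000003031, chromosome 6, 134920401 to 134925513, plus strand, 4552 exon bases), which encodes the CDK inhibitor p27, gave the smallest adjusted p of the 10 genes with either hairpin. It was measured at 94.5 and 98.8 CPM in nt-shRNA, at 76.9, 76.4 and 75.0 CPM in shRNA1 and at 74.5, 73.9 and 79.4 CPM in shRNA2. All 6 KD libraries were below both control libraries by more than the spread within any group. The level fell by 21.3% with shRNA1 (log2 fold change -0.35, SE 0.062, adjusted p = 0.000336) and by 21.4% with shRNA2 (log2 fold change -0.35, SE 0.062, adjusted p = 0.000102). The log2 difference between the hairpins was -0.00 with a 95% interval from -0.12 to 0.12, and both calls against the control held in all 15 alternatives, with adjusted p up to 0.0122 and 0.0046. *Cdkn1b* shares no exon bases with another annotated gene. The genes whose profile over the 8 libraries was nearest to that of *Cdkn1b* were *Sh3gl2*, *Hint1* and *Oxsr1*, with root mean square differences of 0.0393, 0.0414 and 0.0426 between centred log2 levels. Their log2 fold changes were -0.28, -0.32 and -0.27 with shRNA1 and -0.33, -0.35 and -0.30 with shRNA2. Values close to those of *Cdkn1b* follow from choosing genes by their profile over the same 8 libraries.

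*Rb1* (ENSMUSG00000022105, chromosome 14, 73183673 to 73325822, minus strand, 6015 exon bases), which encodes the substrate that the cyclin D and cyclin E kinases phosphorylate, rose with both hairpins. It was measured at 25.3 and 22.8 CPM in nt-shRNA, at 32.8, 29.8 and 28.6 CPM in shRNA1 and at 32.7, 27.7 and 29.3 CPM in shRNA2. Every KD library was above both control libraries, and the hairpins covered the same range. The level was 26.4% higher with shRNA1 (log2 fold change 0.34, SE 0.093, adjusted p = 0.00967) and 24.6% higher with shRNA2 (log2 fold change 0.32, SE 0.094, adjusted p = 0.00738), with a log2 difference of -0.02 between them (95% interval -0.19 to 0.15). Without nt-shRNA replicate 2 neither call held (adjusted p = 0.136 and 0.116), and without shRNA1 replicate 1 the shRNA1 call was lost (0.0509). Of its exon bases, 896 are shared with *Rcbtb2* and *Lpar6*, and fragments there were not counted.

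The hairpins were then compared with each other, to ask which of these genes followed the choice of hairpin. *Ccnd1*, *Cdk4* and *Cdk6* were higher with shRNA2 than with shRNA1, none of the 10 was called lower, and 7 did not pass. The background for this comparison is 35.6% of all tested genes called, 16.9% higher and 18.7% lower. At an unadjusted p under 0.05 edgeR gave 1 lower gene, *Ccnd2*, and DESeq2 gave 0 lower and 3 higher at an adjusted p under 0.05. The 5 genes called in the same direction with both hairpins (*Ccnd3*, *Cdk2*, *Cdkn1b*, *Ccne2* and *Rb1*) were among those that did not pass here. Counting libraries alone, the groups did not overlap for 8 of the 10 genes between shRNA1 and nt-shRNA, for 6 between shRNA2 and nt-shRNA and for 3 between the hairpins, and among all tested genes this held for 56.8%, 71.4% and 47.8%.

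**Figure D4:**
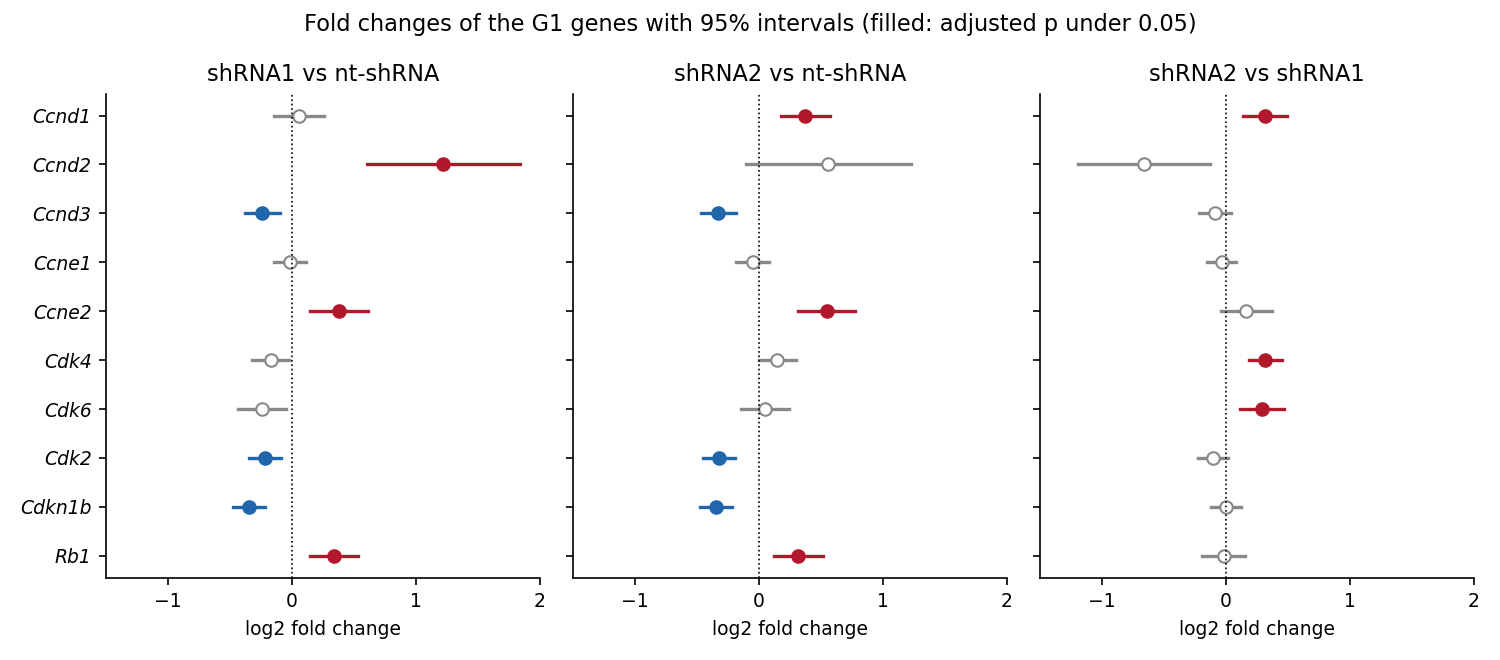
Log2 fold change of each gene in the 3 comparisons, with bars for the 95% interval from the edgeR fit and filled points where the adjusted p was under 0.05 (red higher, blue lower). *Cdkn1b*, *Cdk2* and *Ccnd3* lie left of 0 with both hairpins, *Ccne2* and *Rb1* lie right of 0, and *Ccnd1*, *Cdk4* and *Cdk6* are filled between the hairpins.

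Besides p27, 6 other CDK inhibitors were tested, of which 1 fell with shRNA1 and 2 with shRNA2, beside 17.1% and 28.7% of all tested genes, and 0 rose with either. *Cdkn2a*, which encodes the CDK4 and CDK6 inhibitor p16 and the p53 regulator p19Arf from transcripts that gene counts cannot tell apart, was measured at 59.2 and 58.3 CPM in nt-shRNA, at 41.3, 44.1 and 49.2 CPM in shRNA1 and at 35.6, 37.4 and 39.2 CPM in shRNA2. Its 3 groups did not overlap, and it was lower with shRNA1 (log2 fold change -0.39, edgeR adjusted p = 0.000928), with shRNA2 (-0.65, adjusted p = 1.13e-06) and with shRNA2 against shRNA1 (-0.26, adjusted p = 0.00832). *Cdkn1c*, which encodes p57, was measured at 4.91 and 4.81 CPM in nt-shRNA, at 5.55, 5.04 and 7.06 CPM in shRNA1 and at 2.79, 2.30 and 3.17 CPM in shRNA2. It fell with shRNA2 (log2 fold change -0.82, adjusted p = 0.000915) and was lower than with shRNA1 (-1.11, adjusted p = 6.85e-05). With shRNA1 its log2 fold change was 0.29 (adjusted p = 0.209), and 0.13 to 0.38 over the fits that left out 1 library. *Cdkn1a*, which encodes p21, gave log2 fold changes of -0.07 and -0.05 (adjusted p = 0.525 and 0.585). With library size alone, which moved the median of all genes by 0.114 and 0.089, *Cdkn1a* stood at 0.0492 and 0.0415, on the other side of 0 and below that shift. *Cdkn2b*, *Cdkn2c* and *Cdkn2d*, the remaining INK4 genes, gave log2 fold changes between -0.10 and 0.13 in both KD comparisons, and none passed.

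Beyond RB itself, the pocket proteins and E2F-DP factors comprised 12 tested genes, of which 1 rose and 2 fell with shRNA1 and 4 rose and 3 fell with shRNA2, beside 30.9% and 55.9% of all tested genes called in either direction. *E2f3*, an activating E2F that RB restrains, was measured at 18.5 and 21.7 CPM in nt-shRNA, at 30.7, 28.0 and 26.99 CPM in shRNA1 and at 40.2, 46.5 and 36.6 CPM in shRNA2, without overlap between any of the groups. It rose with shRNA1 (log2 fold change 0.50, adjusted p = 0.00122) and with shRNA2 (1.03, adjusted p = 1.23e-07), and it was higher with shRNA2 than with shRNA1 (0.53, adjusted p = 0.00022). The E2F genes did not move together. *E2f1* fell with both hairpins (-0.27, adjusted p = 0.00801 and -0.38, adjusted p = 0.00021). *E2f4* fell with shRNA1 (-0.25, adjusted p = 0.0106) and *E2f5* with shRNA2 (-0.34, adjusted p = 0.000785). With shRNA2 *E2f7* (0.38, adjusted p = 0.00138) and *Tfdp1* (0.27, adjusted p = 0.000849) rose. *Rbl1*, which encodes the pocket protein p107, fell with shRNA2 (-0.52, adjusted p = 8e-06), where *Rb1* rose. Its level with shRNA2 was also lower than with shRNA1 (-0.36, adjusted p = 0.000462). *E2f6*, a repressive E2F that does not bind RB, rose with shRNA2 (0.52, adjusted p = 1.03e-05) and was higher than with shRNA1 (0.33, adjusted p = 0.000997). With shRNA1 its log2 fold change of 0.19 (adjusted p = 0.0592) passed in 7 of 15 alternatives.

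Genes that activate the G1 kinases and genes that turn over the cyclins and p27 were tested as lists of 6 each. Of 6 genes of CDK activation, 4 fell with shRNA1 and the same number with shRNA2, 0 rose, and the median log2 fold change was -0.23 and -0.24, where 17.1% and 28.7% of all tested genes were lower. *Cdc25a*, the phosphatase that removes inhibitory phosphates from CDK2, fell with shRNA1 (log2 fold change -0.30, adjusted p = 0.00119) and shRNA2 (-0.38, adjusted p = 3.52e-05). *Cdc37*, the HSP90 cochaperone that loads CDK4 and other kinases, gave -0.24 (adjusted p = 0.0134) and -0.28 (adjusted p = 0.00177), and *Mnat1*, a subunit of the CDK-activating kinase, gave -0.23 (adjusted p = 0.0158) and -0.25 (adjusted p = 0.0043). Without nt-shRNA replicate 1, *Cdc25a* with shRNA1 (adjusted p = 0.0556) and *Cdc37* with shRNA1 (0.268) and shRNA2 (0.07) did not pass, and without nt-shRNA replicate 2 *Mnat1* did not (0.157 and 0.0643). The shRNA1 calls of *Cdc37* and *Mnat1* were also lost without shRNA1 replicate 2 (0.0666 and 0.0843), and that of *Cdc37* without shRNA1 replicate 1 (0.0624). With library size alone, *Cdc37* with shRNA1 (adjusted p = 0.16) and *Mnat1* with both hairpins (0.211 and 0.0535) did not pass. Of 6 turnover genes, 2 rose and 1 fell with shRNA1, and 3 rose and 0 fell with shRNA2, beside 13.8% and 27.2% of all tested genes higher and 17.1% and 28.7% lower. The gene that fell was *Cks1b* (-0.19 with shRNA1, adjusted p = 0.0326), which did not pass with shRNA2 (-0.06). *Skp2* (-0.06 and 0.08) and *Ambra1* (0.04 and 0.04) passed with neither hairpin.

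The turnover gene that moved furthest was *Fbxw7*, the substrate receptor through which SCF ubiquitin ligase degrades phosphorylated cyclin E. It was measured at 26.1 and 27.4 CPM in nt-shRNA, at 45.2, 45.6 and 42.7 CPM in shRNA1 and at 76.4, 85.3 and 61.9 CPM in shRNA2. The 3 groups did not overlap, and *Fbxw7* rose with shRNA1 (log2 fold change 0.73, adjusted p = 3.16e-05), with shRNA2 (1.48, adjusted p = 1.27e-09) and between the hairpins (0.75, adjusted p = 5.66e-06). *Cul1*, the scaffold of the same ligase, was measured at 103 and 106 CPM in nt-shRNA, at 141, 138 and 120.0 CPM in shRNA1 and at 180, 191 and 171 CPM in shRNA2, and rose with shRNA1 (0.35, adjusted p = 0.00135) and with shRNA2 (0.79, adjusted p = 4.63e-08). *Rbx1*, its RING subunit, rose with shRNA2 (0.23, adjusted p = 0.00812), a call lost without nt-shRNA replicate 2 (adjusted p = 0.0904). These calls concern transcripts, and the levels of the cyclin and p27 proteins were not analysed here.

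Downstream of the G1 genes, 17 genes of S phase entry were tested, of which 0 rose and 3 fell with shRNA1, and 4 rose and 4 fell with shRNA2, beside 30.9% and 55.9% of all tested genes called in either direction. *Tyms*, thymidylate synthase, was measured at 20.1 and 20.7 CPM in nt-shRNA and at 44.6, 55.6 and 40.4 CPM in shRNA2, and rose (log2 fold change 1.20, adjusted p = 9.23e-08). Its shRNA1 libraries at 26.1, 27.6 and 21.8 CPM lay between, with a log2 fold change of 0.30 (adjusted p = 0.0672) that passed in 8 of 15 alternatives. *Mcm6*, a subunit of the replicative helicase, fell with shRNA1 (-0.28, adjusted p = 0.00226) and shRNA2 (-0.46, adjusted p = 4.22e-06). The other subunits did not follow it. *Mcm5* (0.36, adjusted p = 0.000399) and *Mcm4* (0.17, adjusted p = 0.0168) rose with shRNA2 and did not pass with shRNA1. *Mcm2*, *Mcm3* and *Mcm7* passed with neither hairpin. *Cdc7*, the kinase that fires origins, fell with both hairpins (-0.31, adjusted p = 0.00236 and -0.46, adjusted p = 1.92e-05). Of 5 genes of the later cyclins and *Cdk1*, *Ccnb2* fell with both hairpins (-0.40, adjusted p = 0.000471 and -0.59, adjusted p = 1.85e-06), while *Ccnb1* (0.36, adjusted p = 3.29e-05) and *Ccnf* (0.21, adjusted p = 0.00619, and 0.051 without nt-shRNA replicate 1) rose with shRNA2. With shRNA1, *Ccnb1* and *Ccnf* gave 0.06 and 0.07 (adjusted p = 0.46 and 0.42).

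**Figure D5:**
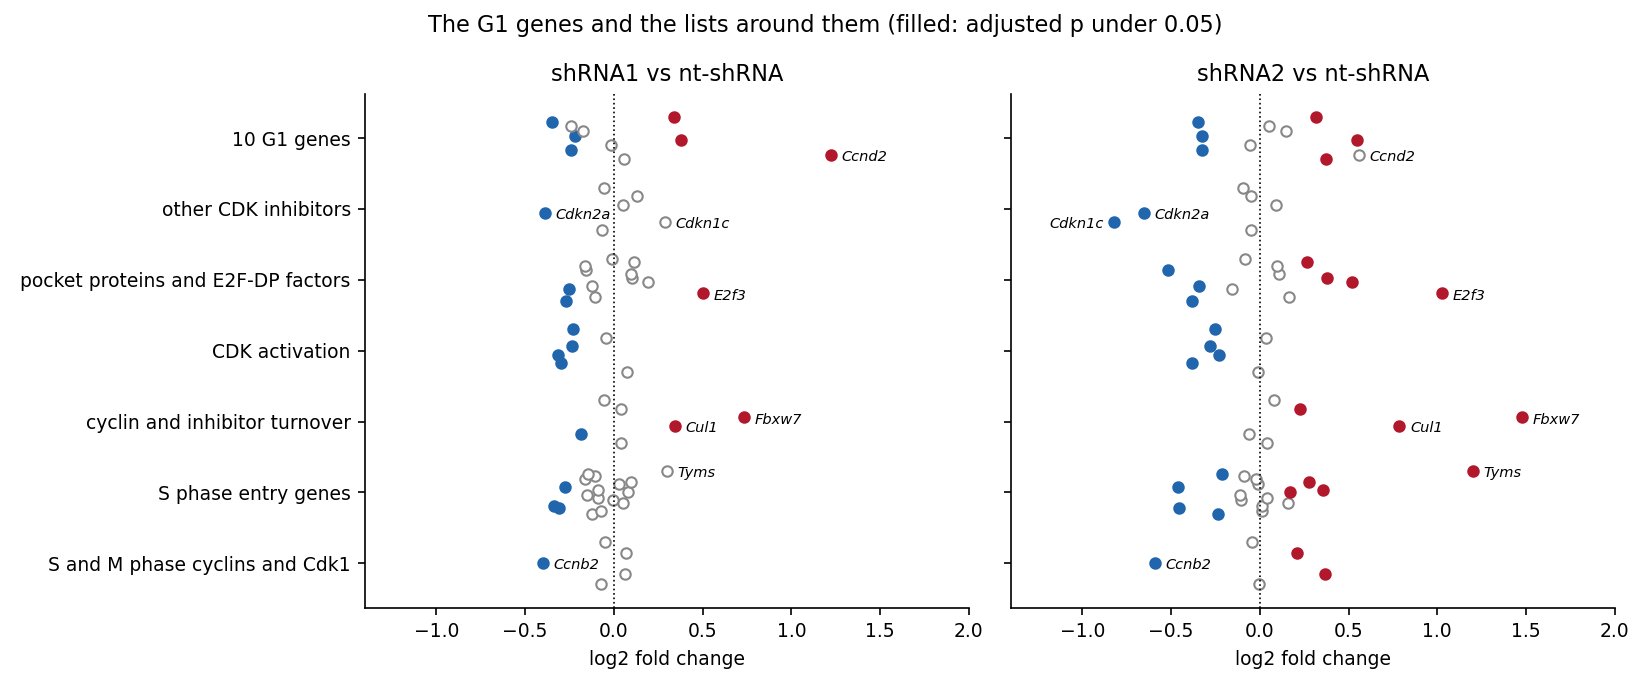
Log2 fold change of the 10 G1 genes and of the 6 lists around them against nt-shRNA, one point per gene, filled where the adjusted p was under 0.05 (red higher, blue lower). *Fbxw7* at 0.73 and 1.48 and *E2f3* at 0.50 and 1.03 lie furthest to the right among the genes called with both hairpins, and 4 of 6 CDK activation genes were called lower with either.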

How the data were processed

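Gene expression was measured by paired-end RNA-seq of poly(A)-selected RNA. The authors checked reads with FastQC, aligned them to GRCm38 with STAR in end-to-end mode and counted fragments on exons with featureCounts 1.6.2 (GENCODE vM24, no strand), and the deposited values are raw counts per gene. Because fragments with more than one alignment or gene were discarded, genes with overlapping or copied exons are uncertain. Symbols were matched by identifier (GENCODE M21) for 55144 of 55385 genes, and the promoters came from RefSeq. Column names gave the groups.

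The 8 libraries were fitted together using edgeR 4.0.16 (with limma 3.58.1, under R 4.3.3): filterByExpr (minimum count 10), TMM, then glmQLFit and glmQLFTest with a coefficient per group, called at a Benjamini-Hochberg adjusted p under 0.05. Standard errors were taken from the F statistics. The biological coefficient of variation was 0.0638. The code was tested on simulated data. Totals were compared by exact two-sided permutation tests. Within groups, the chi-square per gene of any pair of libraries was 3.12 to 12, more than sampling noise, so each library was counted once. The labels call the libraries biological replicates without naming separate cultures, so p-values measure the spread between these libraries. Alternatives were DESeq2 1.42.0, RLE factors, library size alone, other filters, only the groups compared, the replicate block, CPM in place of CPM per kb, and each library left out.

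The 10 genes and all lists were chosen with earlier results of these data known. Named besides them were all other CDK inhibitors, the 3 genes of each further list with the smallest adjusted p with shRNA2, and the 3 nearest profiles to the gene with the smallest adjusted p. Further genes of the E2F, turnover and S phase entry lists were added to show how other members moved. For these added genes the alternatives were not examined. Splicing and proteins were not analysed here. Tables were handled with pandas 2.3.3 (Python 3.11.15) and figures drawn with matplotlib 3.10.9.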

Additional observations from a re-analysis of the deposited data

How the results depend on the processing

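Of the calls against nt-shRNA, those of *Cdkn1b* with both hairpins and of *Ccnd3*, *Ccne2* and *Cdk2* with shRNA2 held in all 15 alternatives, as did *Ccnd1* and *Cdk4* between the hairpins, and DESeq2 gave the same numbers of genes in each direction. The control has 2 libraries, and where 1 was left out the lone one was assumed to vary like the other groups. Library size alone moved the median of all genes by 0.114 (shRNA1), 0.089 (shRNA2) and -0.024 (between hairpins), raised the share of calls that were higher from 44.7% to 70.5% with shRNA1 and from 48.7% to 58.9% with shRNA2, and left 1 G1 gene lower with shRNA1. It turned the sign of *Ccne1* (0.0985 and 0.0371, or -0.015 and -0.052 relative to those shifts), *Cdkn1a* (0.0492, 0.0415 and -0.0077 between hairpins), *Cdkn2d* (0.0589 with shRNA1) and *Cdkn2c* (0.0423 with shRNA2). Each of these resulting values lay nearer 0 than the shift of all genes. It changed the D-type total to -0.058 and -0.076 (from -0.173 and -0.166) and the E-type total to 0.136 and 0.097 (from 0.021 and 0.007), as log2 ratios, and CPM in place of CPM per kb gave -0.228 for the D-type total with shRNA2. *Cdkn1a* between hairpins was -5e-04 with no filter, and *Ccne1* with shRNA1 was 0.0144 with at least 10 counts in every library and 0.0056 with only the groups compared. Between the hairpins 1 G1 gene (*Ccnd2*) was lower, against 0, with the replicate block, with RLE factors, with library size alone and under both other filters. The replicate numbers did not pair the libraries (correlations of same-numbered deviations from -0.026 to 0.074), and with the replicate block 6018, 10034 and 6518 genes were called in the order used above, against 5388, 9758 and 6204. With each library left out in turn, G1 genes higher numbered 1 to 3 with shRNA1, 2 to 5 with shRNA2 and 2 to 3 between hairpins, and lower ones 1 to 5, 3 in every case and 0 to 1. Log2 fold changes that changed sign then ranged, with shRNA1, from -0.054 to 0.177 (*Ccnd1*), -0.0728 to 0.0418 (*Ccne1*), -0.192 to 0.0701 (*Cdkn1a*), -0.0386 to 0.15 (*Cdkn2b*), -0.0003 to 0.236 (*Cdkn2c*) and -0.137 to 0.0276 (*Cdkn2d*), with shRNA2, from -0.112 to 0.0017 (*Ccne1*), -0.0339 to 0.134 (*Cdk6*), -0.178 to 0.0831 (*Cdkn1a*), -0.0048 to 0.183 (*Cdkn2b*) and -0.147 to 0.0848 (*Cdkn2c*), and between hairpins from -0.035 to 0.0187 (*Cdkn1b*), -0.09 to 0.0374 (*Rb1*), -0.0259 to 0.045 (*Cdkn1a*), -0.0568 to 0.115 (*Cdkn2b*), -0.0885 to 0.0042 (*Cdkn2d*), -0.0552 to 0.0155 (*Mnat1*) and -0.0784 to 0.015 (*Cdc37*). The cause of these shifts was not tested.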
